A study of Mus musculus with 6 samples.

Results

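Zfp804b-high GABAergic nuclei outside the medium spiny neuron classes made up 779 of the 48834 nuclei in a single-nucleus RNA-seq study of mouse striatum, or 1.6% of all nuclei and 3.72% of the 20940 nuclei with Gad1+Gad2 at 2 or more. They were chosen by 7 conditions on the deposited value per nucleus: Gad1+Gad2 of at least 2, Zfp804b+Glra3 of at least 5, Rgs9+Pde10a of at most 5, Slc17a7 of at most 1, Sst+Npy+Pvalb+Pthlh of at most 2, Chat+Slc5a7 of at most 1 and Mog+Mag of at most 1. The 6 libraries came from frozen striatum of mice, 3 wild type and 3 Celsr3 heterozygous, which the labels call biological replicates. No age, sex or strain is given, and the labels do not say which part of Celsr3 the mutant allele changes. Celsr3 encodes an atypical cadherin of the planar cell polarity pathway that guides axon tracts in the forebrain. Wild-type libraries gave 104, 74 and 109 members, and heterozygous libraries 71, 274 and 147.

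Most striatal neurons are GABAergic medium spiny neurons (MSNs), which project to the pallidum and midbrain and carry Rgs9 and Pde10a. The rest of the GABAergic neurons are interneurons, and a striatal dissection can also take in neurons of the adjoining pallidum, septum and amygdala. Zfp804b encodes a zinc finger protein. Glra3 encodes the alpha 3 subunit of the glycine receptor, a chloride channel opened by the inhibitory transmitter glycine.

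Zfp804b carried the selection. It reached 5 by itself in 726 members, while 53 needed Glra3 to pass and 7 had Zfp804b at 0. The median Zfp804b value was 13, with a range of 0 to 130. Just inside the limit lay 51 members with a sum of 5, and just outside lay 84 nuclei with a sum of 4 that met every other condition. Of the 3918 nuclei that met every other condition, 2438 had a sum of 0. Members were not free of the MSN genes: Rgs9+Pde10a was at 3 to 5 in 343 members and at 0 in 120. A further 335 nuclei with Zfp804b+Glra3 at 5 or more failed only the Rgs9+Pde10a condition. Glra3 was detected in 40.3% of members, against 3.76% of MSN-gated nuclei and 0.936% of oligodendrocyte-gated nuclei, a class that should lack it. Median genes detected were 3747 in members, 3310.5 in MSN-gated and 1896 in oligodendrocyte-gated nuclei. The values of Zfp804b, Glra3, Rgs9 and Pde10a belong to the rule and are given as a description. Genes detected are no part of the rule and were not matched between the classes.

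The libraries held 7735 to 8875 nuclei with 2456 to 3011 median genes per nucleus. Each pair of libraries shared 11 to 29 cell barcodes, and none of the shared barcodes was a member in both libraries. A doublet score above 0.25 was found in 8 members.

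The GABAergic label was checked against the vesicular GABA transporter Slc32a1, which the rule did not use. It was detected in 62.9% of members, 40.8% of MSN-gated, 51.8% of interneuron-gated and 11.6% of oligodendrocyte-gated nuclei. The vesicular glutamate transporter Slc17a6 was at 2 or more in 37 members, or 4.75%, and 33 of them fell in 1 group described below. Of those 37, 23 had Gad1+Gad2 at the limit of 2, where 261 members lay in all. Slc17a6 at 2 or more was found in 0.632% of MSN-gated, 1.47% of interneuron-gated and 1.05% of oligodendrocyte-gated nuclei. Nuclei that failed only the Zfp804b+Glra3 condition had Slc32a1 in 33.9% and Slc17a6 at 2 or more in 1.98%. Their median of genes detected was 2361, and that of interneuron-gated nuclei 3160.5, against 3747 in members. The part of detection in these percentages was not tested. Oligodendrocyte-gated nuclei were also required to lack Gad1 and Gad2. The limits differ, with Slc32a1 counted at 1 or more and Slc17a6 at 2 or more. Within them, most members carried Slc32a1 and a minority carried a glutamatergic marker.

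Members were set beside 11710 MSN-gated nuclei, with Rgs9+Pde10a above 5, and 678 interneuron-gated nuclei, with Sst+Npy+Pvalb+Pthlh above 2. Both classes were also held to Zfp804b+Glra3 below 5, so the gates on both sides set the gap in that sum. Another 438 nuclei had Zfp804b+Glra3 at 5 or more, Rgs9+Pde10a over 5 and Gad1+Gad2 at 2 or more, and fell in none of these classes. Values are means per nucleus in each library on the authors' depth-corrected scale. In 497 of 15807 genes compared (3.14%) all 6 member libraries lay above every library of both other classes, and in 108 (0.683%) all 6 lay below. Since the rule chose members by expression in this same contrast, these counts and the genes that follow carry no test.

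Zfp804b (chr5:6769010-7344756 in GRCm38) stood at 17.2, 18.9 and 17.5 in the wild-type and 16.4, 22.3 and 19.2 in the heterozygous libraries, against means of 0.113 in MSN-gated and 0.262 in interneuron-gated nuclei. Glra3 was 1.12, 0.959 and 1.34 in wild-type and 0.507, 1.26 and 0.673 in heterozygous members, against 0.0472 and 0.13. Ankrd55, the other label marker above both classes in every library, ran from 0.859 to 1.11 against 0.0697 and 0.5. Tshz2, a zinc finger transcription factor, and Cep112 overlapped the interneuron-gated range because of heterozygous replicate 1, where they stood at 1.21 and 1.35. Of the 5 label markers, 3 were thus above both classes throughout, and for Zfp804b and Glra3 the gates set this gap.

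Among the 20 genes with the highest lowest-library fold over both classes, 16 did not overlap either class. Their height was uneven across the 10 groups of members described below: 2 of the 20, Zfp804b and Ablim3, had group means above every library of both classes in all 10 groups, 11 in at least 8 groups and 9 in 5 to 7. After Zfp804b came Cadps2, a regulator of dense-core vesicle release, at a member mean of 1.97 against 0.13 and 0.297, with 11.3 in group 10 and 0.214 to 0.297 in groups 1, 6 and 9. Chst9 (1.01 against 0.068 and 0.145), Ankfn1 (1.39 against 0.237 and 0.312) and Htr7, a serotonin receptor (0.769 against 0.0821 and 0.145), followed. The Chst9 mean came mostly from group 5, at 7.14 against 0.203 in the other members. Cntnap5a, a neurexin-family adhesion molecule, ran from 7.95 to 23.4 in members against means of 3.75 and 3.14. It stood at 35.5 in group 1 and at 1.7 to 9.55 in the other groups, with groups 5 (2.1) and 9 (1.7) below both class means. Sorcs3, a sorting receptor, had a mean of 5.29 against 1.38 and 0.873, and Cpne4 one of 3.25 against 0.236 and 0.745. Adarb2, a marker of caudal ganglionic eminence (CGE) lineages, was high at 22.6 but uneven, from 7.05 in heterozygous replicate 3 to 36.2 in wild-type replicate 2. B230217J21Rik, Prr16, 8030451O07Rik, Fhod3, Ablim3, Khdrbs2, Lrfn2, 6330411D24Rik and Trpc4 complete the list with Cep112.

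**Figure D1:**
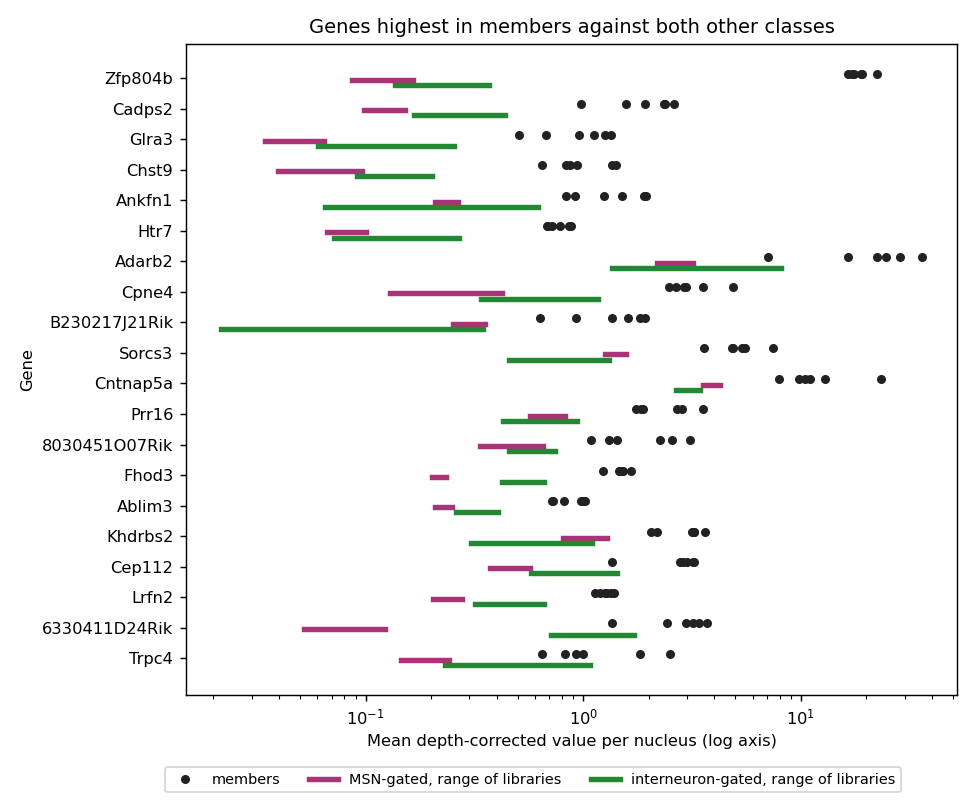
Mean depth-corrected value per nucleus (log axis) for the 20 genes highest in members against both other classes. Black points are the 6 member libraries, and bars span the 6 libraries of MSN-gated (purple) and interneuron-gated (green) nuclei. Zfp804b members lie between 16.4 and 22.3, far right of both bars, while Adarb2, Cep112, 6330411D24Rik and Trpc4 overlap a bar.

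Of the 10 genes lowest in members against both classes, 9 did not overlap either class. Gpm6b (1.31 against 4.65 and 3.95), Slc4a4, a bicarbonate transporter (0.824 against 5.41 and 3.33), Rgs20, Nrgn, Wdr17, Utrn, Cdk19, Pcp4 and Dleu2 lay below both classes in every library, and Pdzd2 overlapped. Of the 12 MSN markers 2 were below both, against 0.683% over all genes compared, among them the transcription factor gene Foxp1 (1.53 against 13.6 and 2.87), and 0 were above both. Since Rgs9 and Pde10a, which the rule capped, are among the 12, nothing is read from this count. The interneuron-gated class carried more astrocyte, oligodendrocyte and microglia signal than members. The 5 astrocyte markers summed to 1.77 to 2.56 per library in members, 2.71 to 3.58 in MSN-gated and 10.4 to 18.3 in interneuron-gated nuclei. The oligodendrocyte markers, of which the rule capped Mog and Mag in members, summed to 2.17 to 6.73, 3.8 to 9.8 and 8.52 to 15.7 in the same order, and the microglia markers to 0.451 to 1.2, 0.893 to 1.17 and 1.58 to 3.89. The part of these sums in the genes that were lower in members was not tested.

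The fixed lists are read against the shares over all genes compared, 3.14% above both classes and 0.683% below, so that a count of 0 below says little in lists of this size. Of 16 GABA receptor genes 4 were above both, Gabra5 (0.539 against 0.355 and 0.237) and Gabrb2 (4.22 against 1.85 and 1.36) among them, and 0 were below. Of the 7 glycine receptor and transport genes compared, Glra3, which the rule used, and Glra2 (0.873 against 0.258 and 0.167) were above both. The shared beta subunit Glrb, at 1.11 against 0.701 and 1.05, overlapped. Among 32 potassium and HCN channel genes Kcnb2, Kcnd3, Kcnip4 and Kcnt2 were above both, and among 21 sodium and calcium channel genes Cacna1b and the T-type channel Cacna1g. Among 24 glutamate receptor genes Grik4 was above and Grm3 below. Among 35 aminergic and peptide receptor genes compared, Htr7 and Htr1f, both serotonin receptors, were above. Htr1f stood at 7.26 in group 5 and at 0.13 to 1.96 in the other groups. Median log2 differences from MSN-gated and interneuron-gated nuclei were 0.89 and 0.67 for the GABA receptor list and 0.29 and 0.21 over all genes compared.

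Of 53 guidance and adhesion genes 6 were above both classes (Cdh4, Cdh12, Cdh18, Cntn6, Tenm1 and Lrrtm4) and 0 below, against 3.14% and 0.683% over all genes compared. Tenm1, a teneurin, had a mean of 9.49 against 2.39 and 4.97, and Cdh18 one of 9.71 against 3.6 and 2.42. Of 48 forebrain transcription factors compared, Nkx2-1, which marks the medial ganglionic eminence (MGE) and pallidum, was above both at a low level (0.088 against 0.0127 and 0.0238), while Foxp1, Rarb and Rora were below. The Nkx2-1 mean came from groups 1 (0.377) and 8 (0.133) of the member groups described below, and the other 8 groups lay between 0 and 0.0217. Of 16 planar cell polarity genes Dvl1 was above both.

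The members were not uniform. Leiden clustering split them into 10 groups of 23 to 138 nuclei, and the groups' leading genes, being made from the clustered values, are descriptions only. Zfp804b ran from 12.1 to 24.0 across groups and was above both other classes in all 10, a gap that the gates set. Glra3 ran from 0.0909 in group 5 to 2.85 in group 7.

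Group 1 (138 nuclei) was led by Sfta3-ps (5.14 against 0.212 in the other members) and Gpc5, a glypican (29.9 against 2.35), with Gm20713, Gm2115 and Gpr174. It had 4 of 6 pallidal markers more than 2-fold above the other members, Nkx2-1, Lhx8, Gbx1 and Etv1, and 3 of 8 MGE markers. None was among its top 10 genes, and it is left unnamed. The MGE list includes Sst, Npy, Pvalb and Pthlh, which the rule capped in members, so nothing is read from MGE counts. Group 8 (45 nuclei) shared Lhx8, Gbx1 and Etv1 and was led by Rxfp2, Ndst4, Gm40663, Gm12128 and Pde3a. Both groups were high in Adarb2 (51.0 and 33.6) and in Gabrb2 (8.14 and 7.38).

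Group 4 (94 nuclei) was led by Prdm16, Ano1, Otx2os1, Spag16 and Prkcd. All 6 septal markers were over 2-fold above the other members, with Zic1, Zic4 and Prdm16 among the top 10 genes, and it is called septal GABAergic neuron-like. Heterozygous replicate 3 supplied 70.2% of its nuclei. Group 10 (23 nuclei) was led by the neuropeptide gene Vip (5.22 against 0.0159), Frem1, Tnfaip8l3, the cannabinoid receptor Cnr1 and Rgs12. It had 8 of 10 CGE markers over 2-fold, 3 of them in its top 10, with Adarb2 at 141.0, and is called CGE-derived interneuron-like.

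Group 5 (88 nuclei) was led by Chst9 (7.14 against 0.203), Gm13974, Tshz1, 6530403H02Rik and Gm49906. Foxp2 stood at 18.4 and Meis2 at 22.4, both the highest of the 10 groups. It had 5 of 6 intercalated amygdala markers and 4 of 6 eccentric MSN markers over 2-fold, and with Tshz1 on both lists it is left unnamed. Group 6 (56 nuclei) was led by Cemip, Adamts15, Myo1e, Maf and Iqgap2 and took 48.2% of its nuclei from heterozygous replicate 1. It had 4 of 8 MGE markers over 2-fold (Lhx6, Sox6, Satb1 and Pvalb), of which the rule capped Pvalb.

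Group 3 (130 nuclei) had Ebf2, Pmch, Slc17a6 and Tcf7l2 as its first leading genes, and 59.2% of it came from heterozygous replicate 2. Several of these leads were narrow: Pmch, the melanin-concentrating hormone precursor, was above 0 in 0.769% of the group and rests on 1 nucleus with a value of 133, Ebf2 was above 0 in 6.15%, and Slc17a6 in 33.1%. Group 3 had 5 of 10 central and extended amygdala markers over 2-fold and a glutamatergic marker among its top 10, and is left unnamed. Group 2 (136 nuclei) was led by Ebf1, Dach2, Gm10754, Dach1 and Rarb, with Ebf1 above 0 in 15.4% of its nuclei. Group 7 (46 nuclei) was led by Greb1, Cyp19a1 (aromatase), Nxph2, Moxd1 and Prlr, the prolactin receptor. Group 9 (23 nuclei) was led by the mechanosensitive channel gene Piezo2, Hmcn1, Gm20631, Creb5 and Fign, and all 4 microglia markers were over 2-fold above the other members, with Csf1r at 0.522.

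**Figure D2:**
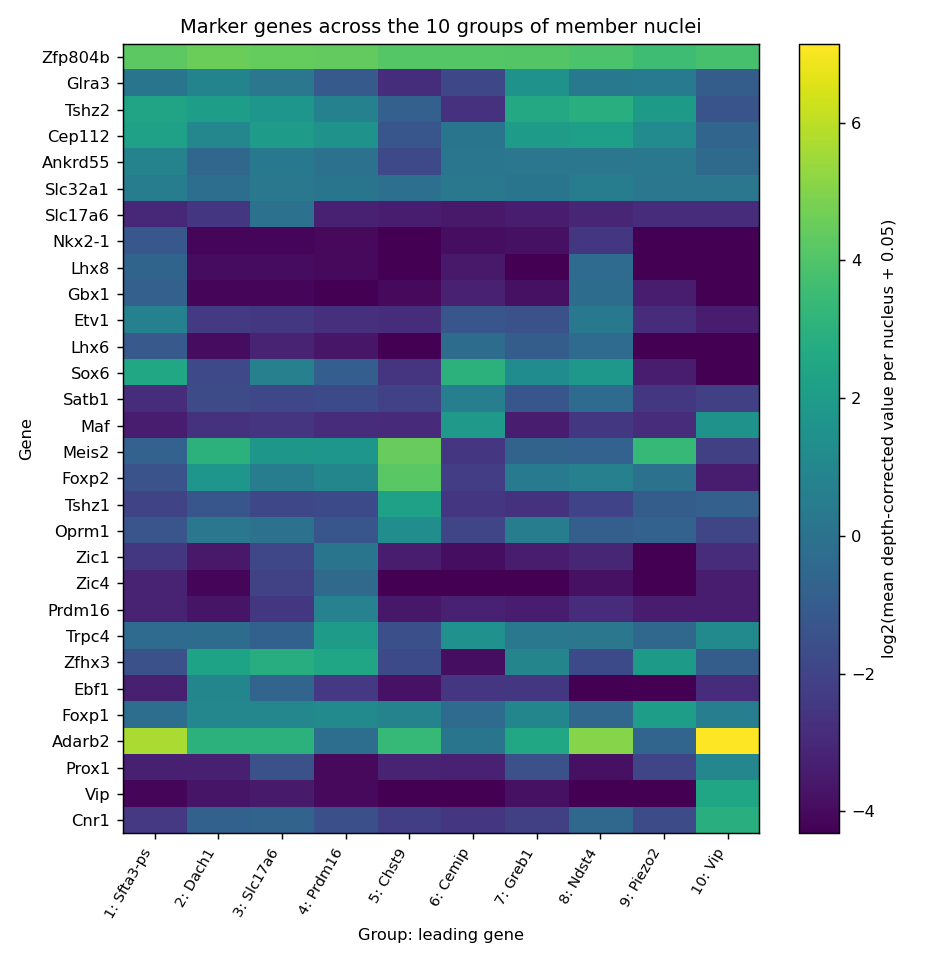
Colour gives log2 of the mean depth-corrected value per nucleus plus 0.05 for marker genes (rows) in the 10 groups of members (columns, labelled by the first leading gene detected in at least 30% of the group). Zfp804b is high in every column, while Zic1, Zic4 and Prdm16 are high in group 4, Foxp2 and Tshz1 in group 5, and Vip in group 10.

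Members were 1.34%, 0.938% and 1.35% of wild-type nuclei and 0.9%, 3.28% and 1.66% of heterozygous nuclei, by library. The heterozygous libraries held both the lowest and the highest share, and the groups overlapped. The means were 1.21% ± 0.236 (SD, n = 3) and 1.94% ± 1.21 (SD, n = 3), a difference that the exact two-sided permutation test did not separate (p = 0.5). This test cannot go below 0.1 with 3 libraries against 3. Without heterozygous replicate 2 the difference shrank from 0.734 to 0.0677 percentage points. Without heterozygous replicate 1 it was 1.26 percentage points and the groups did not overlap (exact permutation p = 0.1, the smallest that 3 libraries against 2 allow). Among GABAergic nuclei the shares were 2.99% ± 0.792 and 4.18% ± 2.08 (exact permutation p = 0.4, n = 3 each). Detection did not separate the genotypes: the median genes per member nucleus averaged 3755.8 ± 55.0 and 3708.3 ± 81.0 (exact permutation p = 0.5, n = 3 each). Leaving out 1 library moved this difference from -47.5 to between -83.8 (without heterozygous replicate 2) and -3.83 (without heterozygous replicate 1).

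**Figure D3:**
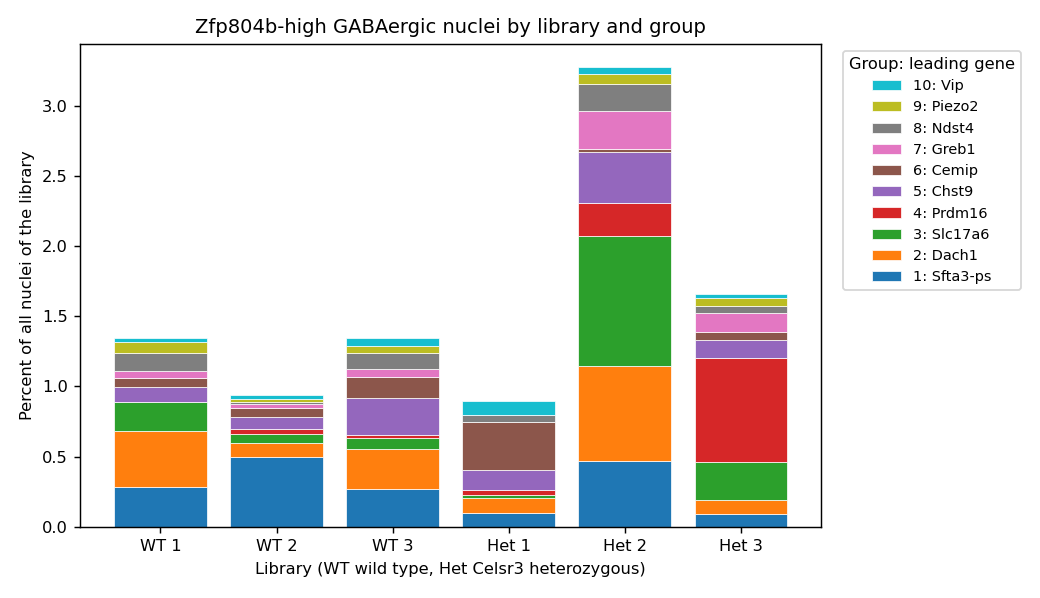
Members as a percent of all nuclei of each library, stacked by group, each named by its first leading gene detected in at least 30% of the group. Heterozygous replicate 2 reaches 3.28% with a large share of group 3, heterozygous replicate 3 holds most of group 4, and the other libraries lie between 0.9% and 1.35%.

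The makeup of the members differed between libraries. Group 1 held 21.2%, 52.7% and 20.2% of wild-type and 11.3%, 14.2% and 5.44% of heterozygous members. These values did not overlap (31.3% ± 18.5 against 10.3% ± 4.47, SD, n = 3 each), at the smallest p the exact permutation test allows (p = 0.1, unadjusted over 10 groups). As a percent of all nuclei group 1 overlapped between genotypes (exact permutation p = 0.4). Group 4 held 0%, 4.05% and 1.83% of wild-type and 4.23%, 7.3% and 44.9% of heterozygous members (exact permutation p = 0.1), also without overlap. As a percent of all nuclei group 4 was 0, 0.038 and 0.0247 against 0.038, 0.239 and 0.744 (exact permutation p = 0.2), so the separation was lost, and heterozygous replicate 3 was the highest. The other 8 groups gave exact permutation p values of 0.2 to 1.0.

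Celsr3 itself stood at 0.192, 0.149 and 0.193 in wild-type and 0.0845, 0.161 and 0.122 in heterozygous members. Heterozygous replicate 2 lay above wild-type replicate 2, so the groups overlapped. Celsr3 fell below the level filter of the genotype fit, and without that filter its log2 difference was -0.54 ± 0.31 (SE, limma adjusted p = 0.879). A count at the transcript's 3' end need not lie in the altered part of the gene.

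In the genotype fit 6599 genes were tested with limma, and 0 (0%) had an adjusted p under 0.05; the smallest was 0.324. An unadjusted p under 0.05 was found for 450 genes (6.82%), 191 higher and 259 lower in heterozygous members. This split moved with single libraries, to 318 higher and 320 lower without heterozygous replicate 1 and to 93 and 212 without heterozygous replicate 3. The genotypes did not overlap in 440 genes that were higher (6.67%) and 387 that were lower (5.86%) in heterozygous members. The 20 genes of smallest p all had groups that did not overlap, 18 lower and 2 higher, with limma adjusted p from 0.324 to 0.484. They are described here as values, and none passed the correction. Marker sums in members were also set side by side by genotype. The 4 microglia markers summed to 0.913, 1.2 and 0.872 in wild-type and 0.451, 0.679 and 0.687 in heterozygous members, and P2ry12, a microglial receptor, was lower (limma adjusted p = 0.589). The 6 pallidal markers summed to 1.48, 2.23 and 1.27 against 1.03, 0.832 and 0.599. Of these markers 4 were over 2-fold in group 1, which held 31.3% of wild-type and 10.3% of heterozygous members. The part of group 1 in the pallidal sum was not tested. The oligodendrocyte precursor markers summed to 0.231, 0.216 and 0.22 in wild-type and 0.239, 0.358 and 0.49 in heterozygous members. These 3 sums did not overlap between genotypes, the first and the second being lower and the third higher in heterozygous members. They were picked from all marker lists after the values were seen, and the sums of the other lists overlapped. Over all genes tested 6.67% were higher and 5.86% lower without overlap, so nothing is read from the count of 3. The septal markers overlapped, at 0.913, 0.946 and 1.27 against 2.1, 1.26 and 4.84, with heterozygous replicate 3 the highest. The microglia and pallidal sums were not lower in members alone. Microglia sums were 1.08 to 1.17 in wild-type and 0.893 to 1.05 in heterozygous MSN-gated nuclei, and 2.63 to 3.89 and 1.58 to 2.5 in interneuron-gated nuclei. Pallidal sums were 0.423 to 0.514 and 0.302 to 0.409, and 0.698 to 0.818 and 0.586 to 0.652. Both overlapped in oligodendrocyte-gated nuclei and in nuclei that failed only the Zfp804b+Glra3 condition. The part of the marker sums in the genotype differences was not tested.

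Sema3e (chr5:14025276-14256689), a secreted semaphorin that steers axons and vessels, stood at 1.07, 1.92 and 0.927 in wild-type and 0.394, 0.42 and 0.381 in heterozygous members. Every heterozygous library was under 0.5, and the log2 difference was -1.61 ± 0.25 (SE, limma adjusted p = 0.324). Sema3a (chr5:13125414-13602565), a repulsive guidance cue, was 1.3, 2.36 and 1.27 against 0.732, 0.792 and 0.483, a log2 difference of -1.25 ± 0.27. The voltage-gated sodium channel gene Scn9a was 2.88, 3.85 and 2.72 against 1.75, 1.83 and 1.53. Gm20713, a transcript opposite Gpc5, was 3.13, 3.45 and 1.94 against 0.507, 1.19 and 0.66. The lincRNA 8030451O07Rik was 2.55, 2.26 and 3.09 against 1.32, 1.43 and 1.09. Higher in heterozygous members were the potassium channel gene Kcnq5, at 4.15, 2.91 and 3.49 against 6.59, 5.41 and 5.6, and the zinc finger gene Zfp423, at 0.365, 0.351 and 0.394 against 0.535, 0.799 and 0.871. The others were Gm42439, Gm15398, Gm37240, 2410021H03Rik, Snx29, Dock2, Nrg3os, Gm28750, Gm42948, Elfn1, Csmd2os, Sntb2 and Gm28379, all lower. An opposite-strand gene overlaps 14 of the 20, a count for which the share over all genes tested was not computed. The assignment of reads within such pairs is uncertain. Droplet 3' libraries keep the strand of the RNA, but the counting setting is not given in the sources used here.

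Many of these genes also differed between groups of members. Of the 20, 13 were highest in group 1, which with group 4 had shares of members that did not overlap between genotypes. The share of all genes tested that were highest in group 1 was not computed. Group 1 also had the highest median of genes detected among the 10 groups (3970), so nothing is read from the count of 13. Zfp423 was highest in group 4 (1.28), of which heterozygous replicate 3 supplied 70.2%. Sema3a averaged 3.79 in group 1 and 0.413 in the other members, Scn9a 5.24 and 1.58, Sema3e 2.37 and 0.353, and Kcnq5, in the other direction, 0.572 and 5.81. With group 1 left out, an alternative added after the data were seen, limma called 0 genes. The smallest limma adjusted p was 0.992, and 254 of 5598 genes had an unadjusted p under 0.05, beside 450 of 6599 in the main fit. The log2 difference of Sema3a was then -0.15, of Scn9a -0.30, of Kcnq5 0.35, of Nrg3os -0.22, of Elfn1 -0.20 and of Snx29 -0.36. That of Gm20713 was -2.24 and that of Sema3e -1.54. Several named genes still did not overlap outside group 1. There 8030451O07Rik was 2.16, 1.8 and 2.68 in wild-type and 1.27, 1.23 and 1.07 in heterozygous libraries. Gm42439 was 1.41, 1.94 and 1.62 against 1.0, 0.796 and 0.921. Gm37240, Gm28750, Zfp423, Gm20713, Gm15398, 2410021H03Rik, Sntb2 and Kcnq5 did not overlap either. Scn9a, Snx29, Dock2, Nrg3os, Sema3a, Gm42948, Elfn1, Csmd2os and Gm28379 overlapped there. The named genes had been picked by their genotype p-value, so nothing is read from these lists. Without groups 3 and 4, each mostly of 1 library, the log2 difference of Zfp423 went from 0.94 to 0.16 (limma adjusted p = 0.972). With equal weight for the 3 groups that had at least 7 nuclei in every library, Sema3e stood at -0.44, Gm20713 at -0.45 and Snx29 at -0.10. Both were added after the data were seen. Among members outside group 1, Sema3e was 0.598, 0.829 and 0.621 in wild-type and 0.349, 0.217 and 0.151 in heterozygous libraries, which did not overlap. Inside group 1 it was 2.82, 2.9 and 2.14 against 0.75, 1.64 and 4.38, which overlapped, with heterozygous replicate 3 the highest of all on 8 nuclei.

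**Figure D4:**
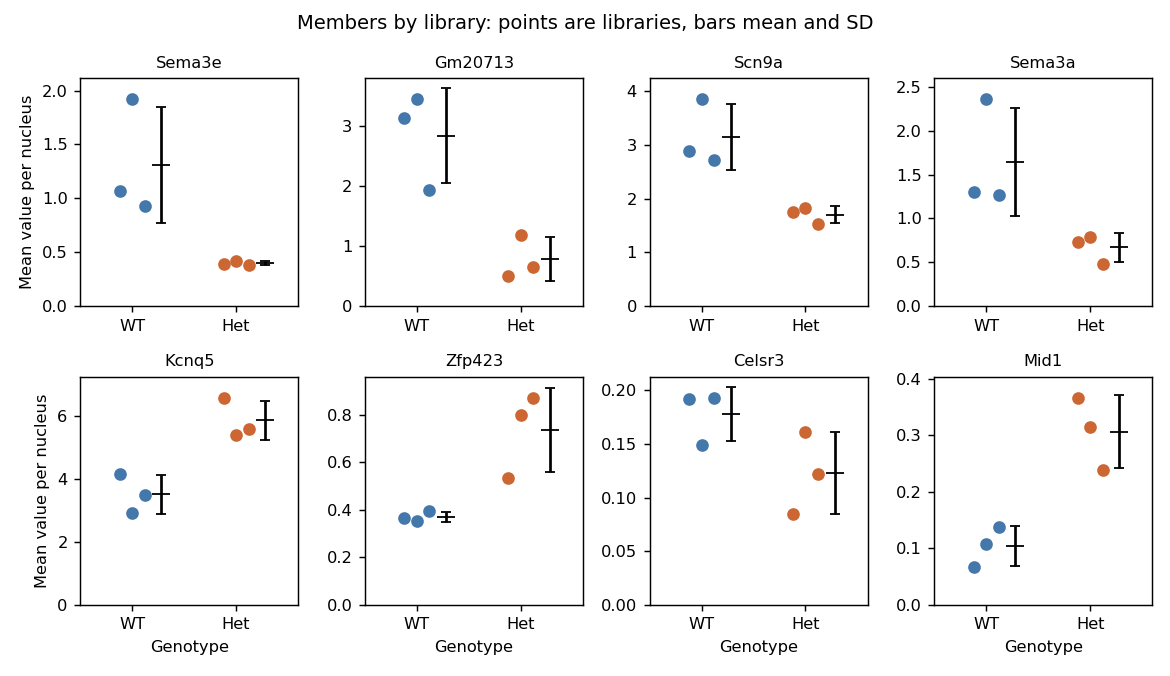
Mean depth-corrected value per nucleus in members of each library for 8 genes, by genotype (WT wild type, Het Celsr3 heterozygous). Points are libraries and bars give mean and SD of 3 libraries. Points separate for Sema3e, Gm20713, Scn9a, Sema3a, Kcnq5, Zfp423 and Mid1 and overlap for Celsr3. None of the 6 that entered the filtered fit passed the correction, Celsr3 and Mid1 fell below its level filter, and without that filter Sema3e and Gm20713 passed (limma adjusted p = 0.0432).

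By list, 50 guidance and adhesion genes were tested, of which 11 had an unadjusted p under 0.05 (6.82% over all genes tested) and 0 were called by limma. In 4 the genotypes did not overlap and heterozygous members were higher (6.67% over all genes), and in 4, Sema3e, Sema3a, Epha4 and Tenm1, they were lower (5.86%). Among the higher ones, Slit2 (1.4, 1.05 and 1.44 against 2.1, 1.65 and 2.04) and Cntn3 (2.81, 1.41 and 2.57 against 4, 2.83 and 4.71) had values that did not overlap. Of 30 potassium and HCN channel genes 6 had an unadjusted p under 0.05, with 4 non-overlapping and higher, among them Kcnq5 and Kcnh7, beside 6.82% and 6.67% over all genes. The median log2 difference was 0.09 for guidance and adhesion and 0.06 for the channels, against 0.02 over all genes tested. Of 8 planar cell polarity genes tested Prickle2, a core pathway component, was 1.5, 1.23 and 1.75 against 2.15, 2.13 and 2.59 (log2 difference 0.62 ± 0.17 SE, limma adjusted p = 0.562). Prickle2 averaged 0.341 in group 1 and 1.44 to 3.15 in the other 9 groups, and group 1 held 31.3% of wild-type and 10.3% of heterozygous members. Slit2, Cntn3 and Kcnh7 were low in group 1 too, at 0.232, 0.775 and 0.703. Epha4 and Tenm1, lower in heterozygous members, were highest in group 1, at 1.91 and 16.2. The fit without group 1, which called 0 genes, was not read for Prickle2, Slit2, Cntn3, Kcnh7, Epha4 and Tenm1. The part of group 1 in their differences was thus not tested. The 5 label markers all overlapped between genotypes. For Zfp804b and Glra3, by which members were chosen, this is a description with no test.

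The genotype difference in members was also compared with that in the other classes. Against MSN-gated nuclei 0 of 6594 genes (0%) differed at a limma adjusted p under 0.05, with 406 at an unadjusted p under 0.05. The smallest p values belonged to Snx29 (difference of log2 changes -0.84 ± 0.15), Trpc6 (1.11 ± 0.19) and Sema3e (-1.51 ± 0.27), each at a limma adjusted p of 0.204. Sema3e differed by -1.61 in members and -0.10 in MSN-gated nuclei. Against interneuron-gated nuclei 0 of 5094 genes (0%) differed, with 218 at an unadjusted p under 0.05 and a smallest limma adjusted p of 0.999 (Snx29, Crlf3 and Csnk1d). No difference in genotype effect between the classes passed the correction.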

How the data were processed

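The deposited table holds 24841 genes by 48834 nuclei from 6 droplet (10x 3') libraries. The submitters' processing notes name Cell Ranger, Seurat 4.1 and builds mm10 and GRCm38; filters on nuclei are not given in the sources used here. The authors' deposited values are whole numbers whose total per nucleus varied by 10.7% (4523 to 10638), so they were treated as a depth-corrected score and not as raw counts. The members and gene lists were chosen with earlier results of these data known. Library means per nucleus were compared with limma 3.58.1 (R 4.3.3, trended) on log2(mean + 0.01), for genes with a mean of at least 0.02 and a summed value averaging at least 30 per library, with Benjamini-Hochberg adjustment; fold changes of low genes are understated on this scale. The limma fit was tested on simulated data. Shares were compared by exact permutation over libraries. P-values measure the spread between libraries, labelled biological replicates. Members were clustered with scanpy 1.11.5 (2000 variable genes, 20 components, 15 neighbours, resolution 0.5). A group was called X-like where 3 or more of a list's markers exceeded the remaining members 2-fold, with 3 in its top 10 genes, a limit set after the groups were seen. Scrublet called under 1% of nuclei per library, so its scores served only for an alternative that left out scores above 0.25. Named genotype genes were Celsr3 and Mid1 where tested and those of smallest p, to 20 in all; named profile genes were the 20 highest and 10 lowest by their least favourable library. A few genes that the rules name are not reported here. Gene positions are from GENCODE M21 (GRCm38).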

Additional observations from a re-analysis of the deposited data

How the results depend on the processing

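No gene passed the limma threshold for genotype under any alternative except the fit with no filter on low values, which called 3 genes, all lower in heterozygous members: Sema3e (-1.61), Gm4128, which lies opposite Sema3e (-1.92), and Gm20713 (-1.89), each at a limma adjusted p of 0.0432; the cause was not tested. The 20 named genes kept their direction in all 357 values under the alternatives. They were chosen by smallest p, and all had groups that did not overlap. Leaving out 1 library, another pseudocount, the replicate block or array weights could therefore not reverse them, and the count is not read as support. Scaling by size factors lowered the share of higher genes among those at an unadjusted p under 0.05 from 42.4% to 35.1%. Without heterozygous replicate 3, 305 genes had an unadjusted p under 0.05, 93 of them higher and 212 lower. Without heterozygous replicate 1 there were 638, 318 higher and 320 lower, and with array weights 641, 316 higher and 325 lower, so the lean towards lower genes was nearly gone in both; the cause was not tested. Same-numbered libraries did not deviate together (correlations -0.13, -0.032 and 0.031), and the fit with the replicate block called 0 genes, with 437 at an unadjusted p under 0.05; for the share the replicate block left the difference at 0.734 percentage points (exact sign-flip p = 0.75). Leaving out 1 library moved the share difference between 0.0677 and 1.26 percentage points. It moved the median total per nucleus difference between -52.2 and 7.75 (main -24.5), with a changed sign without wild-type replicate 2. A stricter gate (Zfp804b+Glra3 of at least 8, Rgs9+Pde10a of at most 2) put the share difference at 0.317 percentage points. A looser gate (Zfp804b+Glra3 of at least 3) put it at 0.958. Without the groups mostly of 1 library (3 and 4, 224 nuclei), added after the data were seen, the share difference was 0.124. At resolution 1.0 clustering gave 16 groups and at 0.3 it gave 7. Differences between classes gave 0 called genes under every alternative run. Depth cannot be known from depth-corrected values, and 3 libraries per genotype limit every comparison.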

Other observations

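High Zfp804b was not confined to the members. A further 2906 nuclei had Zfp804b+Glra3 at 5 or more and failed another condition, and they were 5.05%, 3.26% and 7.1% of nuclei in the wild-type and 6.74%, 7.55% and 5.87% in the heterozygous libraries. Of these, 2293 failed the Gad1+Gad2 condition, with 1674 at 0 for both genes, and 616 had Slc17a6 at 2 or more. Rgs9+Pde10a was too high in 1298, Slc17a7 in 803 and the interneuron peptide sum in 391, of which 121 failed on that alone.

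Mid1, which encodes a microtubule-associated ubiquitin ligase, stood at 0.0673, 0.108 and 0.138 in wild-type and 0.366, 0.314 and 0.238 in heterozygous members. It fell below the level filter, and without the filter its log2 difference was 1.50 ± 0.30 (SE, limma adjusted p = 0.306).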
